A study of Mus musculus with 8 samples.

Results

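The bone morphogenetic protein (BMP) genes described here are the receptors Bmpr1a and Bmpr2, the Smads Smad1, Smad4, Smad5, Smad6 and Smad7, and the inhibitor-of-DNA-binding genes Id1, Id2 and Id3. These 10 genes were chosen by name among the 48440 genes of the deposited expression table, and all 10 were found by their Ensembl identifiers. RNA had been sequenced from jejunal epithelial cells of 8 female mice that carried the Sox9-EGFP reporter on a C57BL/6J background. The sequenced cells were those sorted for a low level of the reporter, and all libraries are labelled Low. This level marks a fraction enriched for stem cells of the crypt. The mice were raised germ-free and came as 4 littermate pairs, A to D. At 8 to 10 weeks of age 1 animal of each pair (conventionalized) was moved to another animal facility and given fecal slurry by gavage, while its littermate stayed germ-free, and both were studied 2 weeks later. Sorting left out cells that stained for CD31, CD45, Annexin-V or Sytox-blue, so endothelial, blood and dying cells were selected against in both groups. The move between facilities went together with the microbiota, and their effects cannot be told apart. The comparison asks how gene expression in this fraction of the epithelium differs after exposure to microbes together with that move.

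BMP ligands bind a complex of type I receptors such as Bmpr1a and type II receptors such as Bmpr2, which phosphorylate the receptor-regulated Smad1 and Smad5. These pair with Smad4 and enter the nucleus, where Id1, Id2 and Id3 and the inhibitory Smad6 and Smad7 are among the best known target genes. In the small intestine BMP activity is low at the crypt base, where it is held back by antagonists from the surrounding mesenchyme, and high on the villus, and it restrains stem cell self-renewal. Id proteins are helix-loop-helix proteins without a DNA-binding region that capture E proteins and thereby oppose lineage-specific helix-loop-helix factors.

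Sequence before a RefSeq start site is shown for Id2, the 1 member that passed the test below, and for Smad6, the member with the next largest fold change. A RefSeq window of GRCm38.p6, 250 bases before to 50 bases after a gene's start, was present for 7 of the 10 members. Both strands were searched for the GC-rich Smad element GGCGCC and the palindromic Smad box GTCTAGAC, which read the same on either strand and do not overlap each other. The stretches below are on the minus strand, Id2 at chr12:25096254-25096342 and Smad6 at chr9:64022056-64022159, with matches in capitals. The Id2 stretch precedes the RefSeq start but lies within an intron of the longest annotated Id2 transcript (GENCODE M21), which starts further upstream, and the last 4 bases of the Smad6 stretch are the first of its exon.
Id2: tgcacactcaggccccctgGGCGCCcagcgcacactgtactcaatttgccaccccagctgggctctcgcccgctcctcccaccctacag
Smad6: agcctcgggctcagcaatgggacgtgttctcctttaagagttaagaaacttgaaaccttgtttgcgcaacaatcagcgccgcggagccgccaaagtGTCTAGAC
The element GGCGCC was found for Id2, Smad5, Bmpr1a and Bmpr2, in 5 of the 9 windows of the 7 members (Smad5 has 3 windows, of which 2 overlap and share their match), and in 11.9% of all 32851 windows of the same length. The box GTCTAGAC was found in 1 of the 9 windows, that of Smad6, across its start site, and in 0.213% of all windows. These are matches of letters in a short window and were not tested for binding.

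Depth on an approximate read scale ran from 6209041 to 19139685 per library. In pair C the germ-free animal differed most from its group in overall expression (median correlation with the rest of its group 0.792, against 0.871 to 0.943 in the other 7 libraries). The conventionalized library of pair A held 50938 CPM of 9 goblet cell markers against 1592 to 8203 CPM elsewhere. Levels are in CPM, a gene's part in each 1000000 of its library's deposited signal, scaled by the trimmed mean of M-values (TMM). Every log2 fold change is conventionalized relative to germ-free, on log2(CPM + 0.5), with its standard error (SE), from limma with Benjamini-Hochberg adjustment and n = 4 animals per group. The expression minimum was 10 CPM in 4 or more libraries. Of the 10053 genes that reached it, 495 were called (4.92%): 117 were called higher in conventionalized mice (1.16%) and 378 lower (3.76%) at an adjusted p under 0.05. With upper-quartile scaling the split was 263 higher and 408 lower. The median log2 fold change of all tested genes was 0.32, and 0.09 with scaling to library size only, so a fold change near 0.3 lies at the middle of all genes. The sorting marker Sox9 averaged 378 ± 109 CPM with microbiota and 246 ± 82.7 CPM without (mean ± SD, n = 4; limma adjusted p = 0.241).

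Id2 was lower in conventionalized animals, Id1 and Id3 had lower means there without passing the test, and the receptors and Smads were not called. Of the 10 members, 8 reached the expression minimum. Among these 8, 1 was called lower and 0 higher, with 4 at an unadjusted p under 0.05 (Id2, Id3, Smad4 and Smad6). This 1 call in 8 stands beside the 3.76% of all genes that were called lower. At an unadjusted limma p under 0.05, 1977 of the 10053 tested genes were higher and 816 lower in conventionalized animals. The median log2 fold change over the 8 was -0.41, with 3 positive and 5 negative values, beside 0.32 over all tested genes.

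**Figure D1:**
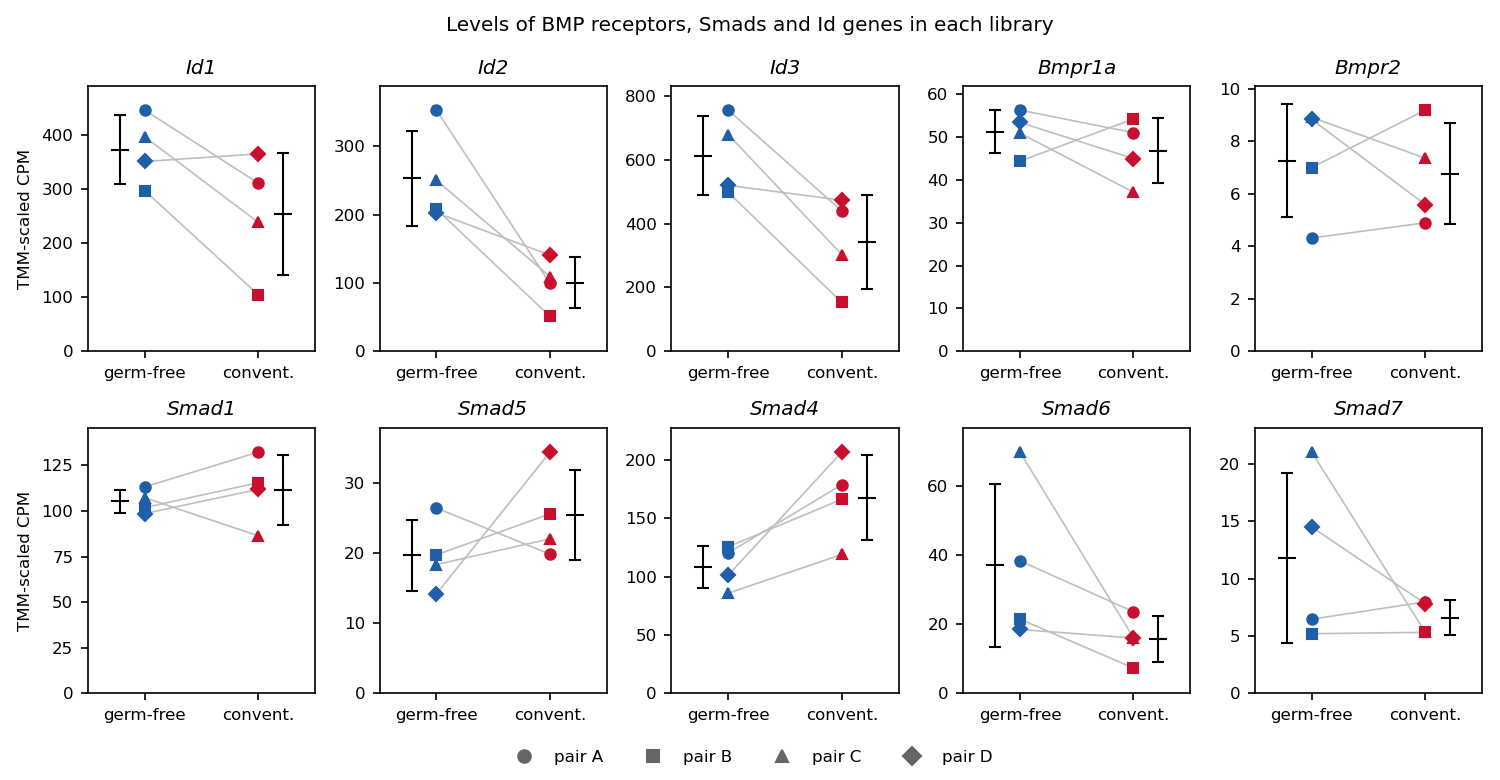
Level of each of the 10 genes in every library (TMM-scaled CPM, linear axis from 0), with symbols for littermate pairs A to D, grey lines joining littermates and black bars for mean ± SD (n = 4 per group). The 4 germ-free libraries lie above the 4 conventionalized ones for Id2 and Id3, and the groups overlap in the other 8 panels.

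Id2 (ENSMUSG00000020644.8, GRCm38 chromosome 12, 25093799 to 25097140, minus strand) encodes the Id protein also known for its part in lymphoid cell fate. Its level was 99.3, 51.2, 109 and 141 CPM in the conventionalized libraries of pairs A, B, C and D. In the germ-free libraries of the same pairs it was 353, 208, 249.98 and 203 CPM. Every germ-free library was above every conventionalized library, an arrangement found for 5.88% of all tested genes, while the opposite one was found for 9.03%. The means were 100.2 ± 37.1 and 253 ± 69.6 CPM (SD, n = 4), a log2 fold change of -1.39 (SE 0.35, limma adjusted p = 0.0357), or 2.62-fold higher in germ-free animals with a 95% interval of 1.56 to 4.39. Within littermate pairs A to D the log2 difference was -1.82, -2.01, -1.19 and -0.52, so all 4 pairs had the same sign. Leaving out single libraries changed the call in 5 of 8 cases. Leaving out the conventionalized animal of pair A, B or C gave a limma adjusted p of 0.083, 0.127 and 0.0812. Leaving out the germ-free animal of pair A or D gave 0.11 and 0.0595. The call held without the conventionalized animal of pair D (0.0422) or the germ-free animal of pair B (0.0337) or C (0.00171). With no expression minimum the limma adjusted p was 0.0629. Over these fits the fold change kept its sign, and it ran from -1.58 to -1.10 on the log2 scale with 1 library left out.

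Id3 (ENSMUSG00000007872.3, chromosome 4, 136143497 to 136145755, plus strand) was at 439, 153, 303 and 473 CPM in conventionalized animals A to D. In the germ-free libraries it was at 755, 498, 678 and 519 CPM. The groups did not overlap, but the margin was narrow, with 498 CPM in germ-free pair B and 473 CPM in conventionalized pair D. The germ-free library of pair D, at 519 CPM, was also close to its conventionalized littermate. The log2 fold change was -0.94 (SE 0.40, 95% interval -1.79 to -0.09) with limma adjusted p = 0.153, and all 4 pairs were lower in the conventionalized animal. Id3 was called in 2 of the 22 alternatives chosen at the outset. With 1 library left out it was called in 0 of 8 fits (limma adjusted p from 0.11 to 0.322). The gene was called with scaling to library size only (limma adjusted p = 0.0482). It was also called when that goblet-rich library and the pair C germ-free animal were both left out (0.0344), where Id2 had a limma adjusted p of 0.000555.

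Id1 (ENSMUSG00000042745.9, chromosome 2, 152736251 to 152737410, plus strand), the target gene most often used as a read-out of BMP signalling, was at 310.2, 105, 238 and 364 CPM in the conventionalized libraries. It was at 445, 296, 396 and 350.3 CPM in the germ-free libraries. The groups overlapped: in pair D the conventionalized animal was the higher by 0.06 on the log2 scale, and in pair B it was lower by the largest margin (-1.50). The log2 fold change was -0.67 (SE 0.39, 95% interval -1.52 to 0.17, limma adjusted p = 0.256). The conventionalized library of pair B was the lowest of all 8 for each of Id1, Id2 and Id3, and without it the Id1 fold change was -0.30 and that of Id3 -0.60.

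Id2 also took a larger share of the summed Id1, Id2 and Id3 signal in germ-free libraries, 18.9 to 22.7%, than in conventionalized ones, 11.7 to 16.8%. The ratio of Id3 to Id1 was 1.48 to 1.71 in germ-free and 1.27 to 1.47 in conventionalized libraries. Both ratios are of CPM values within a library and so do not depend on the scaling between libraries.

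**Figure D2:**
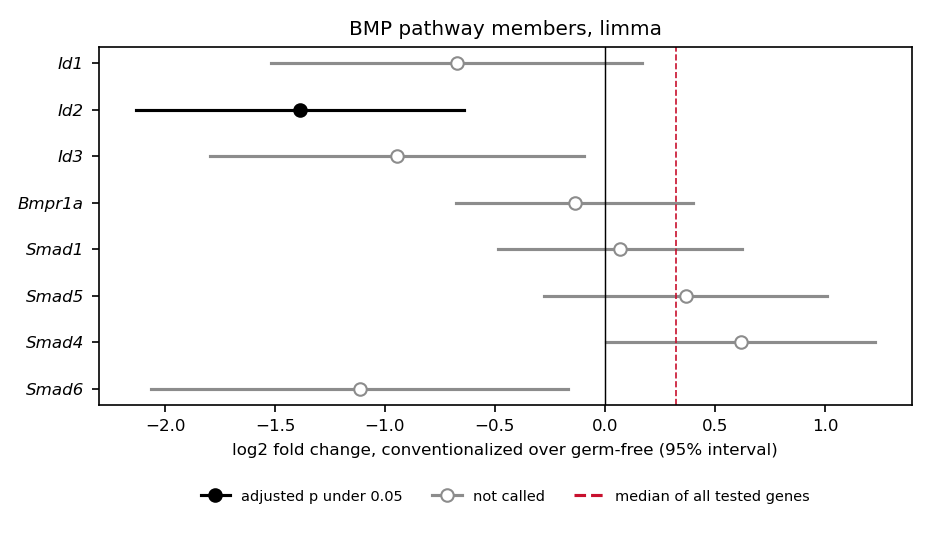
log2 fold change of the 8 members that reached the expression minimum, conventionalized over germ-free, with 95% intervals from limma (n = 4 per group). Id2 (-1.39) is the 1 member called, the intervals of Id1, Bmpr1a, Smad1 and Smad5 include 0, and the dashed line is the median of all tested genes (0.32).

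Markers of enteroendocrine cells, the hormone-secreting cells of the epithelium, were lower in conventionalized animals along with Id2. All 16 markers on that list were tested, 11 were called lower in conventionalized animals and 0 higher, and their median log2 fold change was -1.95. Their summed level was 17094, 10611, 21784 and 27569 CPM in conventionalized animals A to D. It was 104356, 57754, 62848 and 45982 CPM in the germ-free libraries. Ordered by this sum, the 8 libraries stood in the same order as by Id2, within both groups as well as across them. For Id1 and Id3 the order was the same only in part: the conventionalized library of pair B was lowest in each case and the germ-free one of pair A highest. The part of enteroendocrine cells in the Id results was not tested. In RNA from a sorted pool, fewer cells of a type and less RNA per cell cannot be told apart. Both quantities share the library scaling, so the likeness of order is a description of these 8 libraries.

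**Figure D3:**
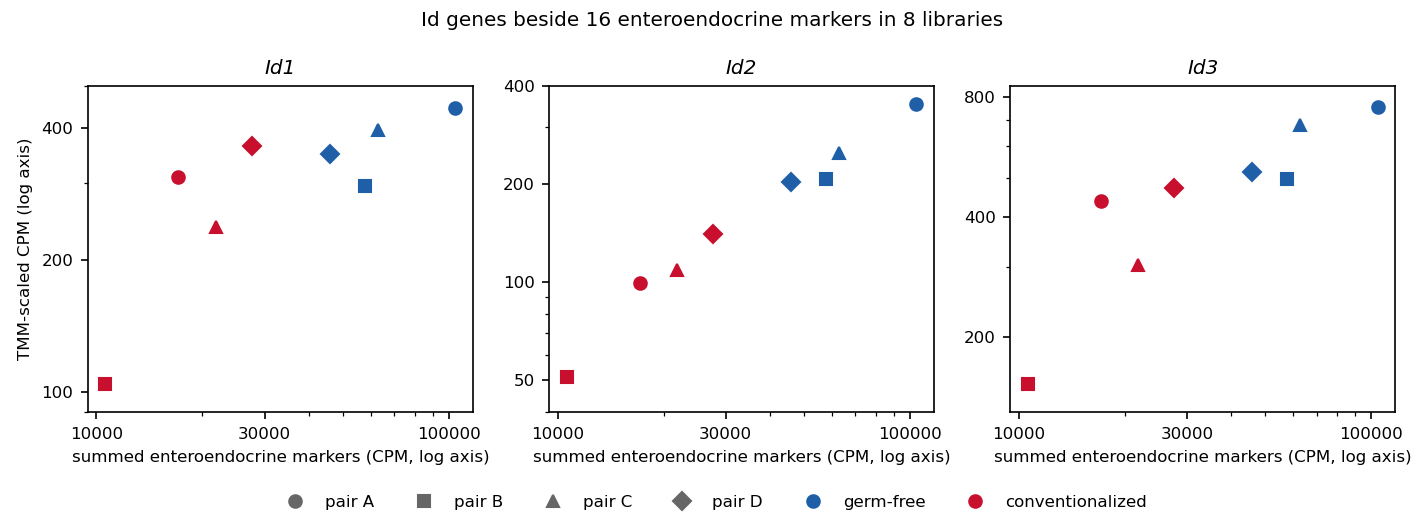
Id1, Id2 and Id3 level in each library (TMM-scaled CPM, log axis) against the summed level of 16 enteroendocrine markers (CPM, log axis), coloured by condition with symbols for littermate pairs. For Id2 the 8 points rise without exception from 51.2 CPM in the conventionalized library of pair B to 353 CPM in the germ-free library of pair A.

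Lists of markers of other epithelial cells were also summed. Tuft cell markers summed to 115 to 889 CPM in conventionalized and 398 to 992 CPM in germ-free libraries. Of these, 0 of 9 tested were called, with a median log2 fold change of -0.93. Paneth cell markers summed to 6687 to 10210 CPM and 2682 to 16507 CPM (1 of 9 called higher, 0 lower). Goblet cell markers summed to 1592 to 50938 CPM and 4097 to 8203 CPM (0 of 9 called). Proliferation genes summed to 2345 to 3796 CPM in conventionalized and 381 to 1946 CPM in germ-free libraries (6 of 15 called higher, 0 lower). Markers of active stem cells summed to 6009 to 11619 CPM and 1203 to 6113 CPM (1 of 14 called, Lgr5, higher in conventionalized animals). Enterocyte markers summed to 1510 to 4843 CPM in conventionalized and 2544 to 6047 CPM in germ-free libraries (3 of 13 tested called lower, 0 higher). These ranges overlapped, and the median log2 fold change of the 13 was 0.04. Markers of cells outside the epithelium were low. The endothelial list (15 genes, which matter here because endothelium also uses BMP receptors and Id genes) summed to 46.1 to 84.0 CPM in conventionalized and 78.2 to 102 CPM in germ-free libraries. Of the 15 genes, 11 stayed under 10 CPM in every library. The endothelial cadherin Cdh5 did not exceed 3.40 CPM and Erg and Cldn5 stayed below 1 CPM. The highest values were those of Esam, 16.3 to 43.9 CPM in conventionalized and 13.5 to 29.2 CPM in germ-free libraries. Pecam1, which encodes the CD31 used for gating, was lower in conventionalized animals (2.15 to 9.84 CPM against 13.4 to 25.3 CPM, limma adjusted p = 0.0218). The mesenchymal list (16 genes) summed to 35.1 to 52.6 CPM in conventionalized and 65.1 to 156 CPM in germ-free libraries, without overlap. Vimentin, Vim, was its most abundant gene, at 22.8 to 32.0 and 26.2 to 136 CPM, and the other 15 genes summed to 3.49 to 26.6 CPM and 19.8 to 38.9 CPM. The leukocyte list summed to 9.35 to 32.4 CPM and 23.2 to 34.2 CPM. The part of these cells in the results was not tested.

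The receptors gave no call. Bmpr1a (ENSMUSG00000021796.14, chromosome 14, 34410734 to 34503341, minus strand), the type I receptor through which the epithelium receives BMP signals, was at 51.0, 54.2, 37.1 and 44.9 CPM in the conventionalized libraries. It was at 56.2, 44.3, 50.9 and 53.3 CPM in the germ-free libraries. The ranges overlapped in part, and the log2 fold change was -0.14 (SE 0.25, limma adjusted p = 0.728). Its 95% interval, -0.68 to 0.40, leaves room for a modest difference in either direction. An antisense gene overlaps Bmpr1a, and the library kit does not mark strand, so reads of the pair cannot be told apart. Bmpr2 (ENSMUSG00000067336.6, chromosome 1, 59763400 to 59879014, plus strand), the type II receptor, was below the expression minimum in every library, between 4.32 and 9.19 CPM. That is an approximate 34 to 99 reads per library. With a minimum of 1 CPM its log2 fold change was -0.09 (SE 0.40, limma adjusted p = 0.911).

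Of the signal-transducing Smads, Smad4 had the largest difference. Smad4 (ENSMUSG00000024515.13, chromosome 18, 73639009 to 73703780, minus strand), the partner shared by the BMP and TGF-beta branches, was at 179, 166, 119 and 207 CPM in conventionalized animals A to D. It was at 120.4, 126, 85.8 and 101 CPM in the germ-free libraries. In all 4 pairs the conventionalized animal was higher, by 0.40 to 1.02 on the log2 scale, but the groups overlapped through the conventionalized library of pair C. The log2 fold change was 0.62 (SE 0.28, 95% interval 0.01 to 1.23, limma adjusted p = 0.177), against the median of 0.32 over all genes.

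Smad1 (ENSMUSG00000031681.15, chromosome 8, 79338395 to 79399518, minus strand), a receptor-regulated Smad of the BMP branch, was at 132, 115, 86.3 and 112 CPM in conventionalized and 113, 102, 107 and 98.5 CPM in germ-free libraries. The germ-free values lay inside the conventionalized range. The log2 fold change was 0.07 (SE 0.26, 95% interval -0.49 to 0.62, limma adjusted p = 0.872), and its sign changed with the scaling (-0.17 with library size only). Smad5 (ENSMUSG00000021540.16, chromosome 13, 56703010 to 56742377, plus strand), its close relative, was at 19.8, 25.6, 22.03 and 34.4 CPM in conventionalized libraries. In germ-free libraries it was at 26.4, 19.7, 18.4 and 14.2 CPM. Pair D, with the highest conventionalized and the lowest germ-free value, set most of its log2 fold change of 0.37 (SE 0.30, 95% interval -0.28 to 1.01, limma adjusted p = 0.413), which was 0.07 without that pair.

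The inhibitory Smads were not called, and both had wide spreads among the germ-free animals. Smad6 (ENSMUSG00000036867.7, chromosome 9, 63953076 to 64022059, minus strand), which blocks the BMP branch in particular, was at 23.6, 7.31, 16.1 and 15.98 CPM in conventionalized libraries. In germ-free libraries it was at 38.3, 21.5, 69.7 and 18.5 CPM. The pair C germ-free animal had the highest value, and each germ-free animal was above its own littermate, with differences of -0.20 to -2.08 on the log2 scale. The log2 fold change was -1.12 (SE 0.44, 95% interval -2.07 to -0.17, limma adjusted p = 0.14), and -0.77 (limma adjusted p = 0.236) once the pair C germ-free animal was left out. Smad7 (ENSMUSG00000025880.11, chromosome 18, 75367529 to 75395935, plus strand), which blocks both the BMP and the TGF-beta branch, reached 10 CPM in 2 libraries and was not tested in the main comparison. It was at 7.98, 5.32, 5.34 and 7.82 CPM in conventionalized and 6.46, 5.204, 21.02 and 14.5 CPM in germ-free libraries. Its high values were those of the germ-free animals of pairs C and D, while pairs A and B differed by 0.28 and 0.03 on the log2 scale in the other direction. With a minimum of 1 CPM the log2 fold change was -0.61 (SE 0.45, limma adjusted p = 0.416).

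Levels can be compared between genes only per length, here CPM per kilobase of annotated exon. Id1 and Id3 were the most abundant members, at 219 ± 96.9 and 191 ± 81.4 CPM per kb in conventionalized and 320.5 ± 54.7 and 342 ± 69.4 CPM per kb in germ-free animals (SD, n = 4), and the ranges of these genes overlapped in both groups. Per kilobase of the longest transcript, Id3 was above Id1 in germ-free animals without overlap (389 to 591 against 255 to 384 CPM per kb), so their order depends on the length used. Id2 followed at 104 ± 28.5 CPM per kb in germ-free animals, above Smad4 at 29.2 ± 4.92 CPM per kb. In conventionalized animals Id2 (41.1 ± 15.2 CPM per kb) and Smad4 (45.2 ± 9.85 CPM per kb) overlapped. Smad1 came next, at 17.8 ± 3.03 and 16.8 ± 1.02 CPM per kb in the 2 groups. Bmpr1a (7.37 ± 1.18 and 8.06 ± 0.798 CPM per kb) and Smad6 (4.91 ± 2.08 and 11.5 ± 7.33 CPM per kb) overlapped in both groups. Smad5 (3.43 ± 0.863 and 2.65 ± 0.683 CPM per kb), Smad7 (1.46 ± 0.328 and 2.61 ± 1.64 CPM per kb) and Bmpr2 (0.376 ± 0.107 and 0.404 ± 0.120 CPM per kb) were lowest. The low value of Bmpr2 depends on a long annotated exon set of 17983 bases, and dividing by its longest transcript (12899 bases) left it the lowest in both groups.

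**Figure D4:**
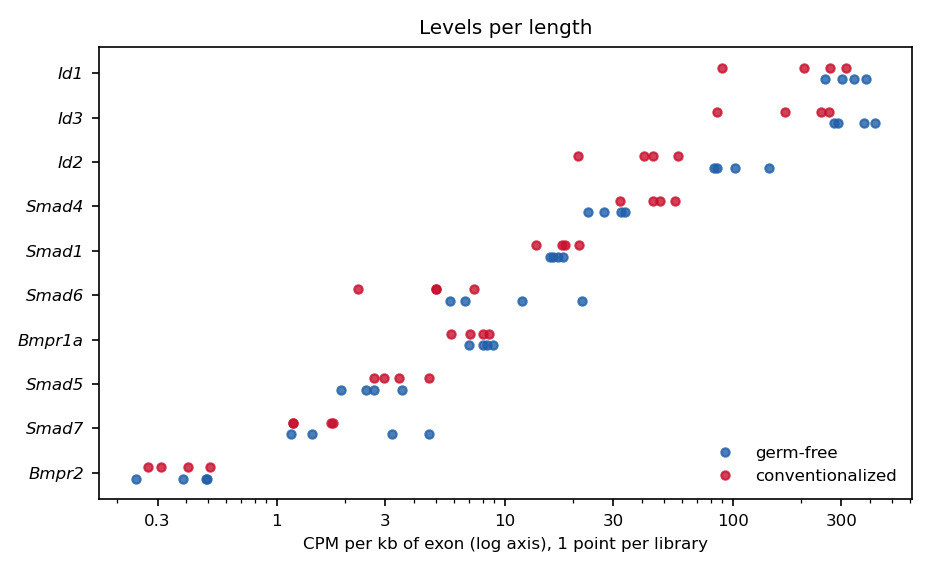
CPM per kilobase of exon (log axis), 1 point per library, for the 10 genes in order of their mean over the 8 libraries. Id1 and Id3 reach 90.1 and 85.5 CPM per kb or more in every library, while Bmpr2 stays between 0.24 and 0.511 CPM per kb.

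The tested genes whose profiles over the 8 libraries were nearest to those of the Id genes were found by the root mean square difference of log2 values, each gene centred on its own mean. For Id1 they were the stress-inducible Gadd45b (difference 0.12 on the log2 scale), Id3 (0.16) and the pore-forming protein gene Gsdmd (0.17). For Id3 they were Id1 (0.16), the membrane protein gene Ttyh1 (0.17) and Gadd45b (0.18). Id2 had other neighbours: Fxyd3, a regulator of ion transport (0.14), the keratin gene Krt7 (0.14) and Gadd45g (0.15). Id3 was in place 42 and Id1 in place 176 by nearness to Id2. These neighbours depend on the measure: by Pearson correlation 2 of the 3 for Id1, 1 of the 3 for Id2 and 0 of the 3 for Id3 were again among the first 3. Krt7, at 1110 ± 391 CPM with microbiota and 3051 ± 861 CPM without, had a log2 fold change of -1.50 without passing the test (limma adjusted p = 0.058), as did Fxyd3 (-1.38, limma adjusted p = 0.0523). These are likenesses over 8 libraries that share their scaling and composition.

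The rest of the BMP and TGF-beta pathway was followed in lists by role, 133 further genes in the table, of which 73 were tested. Without a littermate block 1 of the 73 was called higher and 8 lower, where the background was 1.16% higher and 3.76% lower. With the littermate pair as a block 5 were called higher and 10 lower, where the background was 8.08% higher and 5.02% lower. At an unadjusted limma p under 0.05, 13 of the 73 were higher and 11 lower, beside 1977 and 816 of the 10053 tested genes. The median log2 fold change over the 73 was 0.01, beside 0.32 over all genes. Leaving out the germ-free animal of pair A gave 5 calls in all, and leaving out the goblet-rich library together with the pair C germ-free animal gave 14.

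Among 28 ligand genes 5 were tested, and 1 was called lower. This was Bmp1, which despite its name encodes a procollagen protease that also cleaves BMP antagonists, at 18.5 ± 3.69 against 49.4 ± 15.9 CPM (conventionalized first, mean ± SD, n = 4; log2 fold change -1.36, SE 0.29, limma adjusted p = 0.0194). Bmp3, a ligand that opposes other BMPs, was at 56.7 ± 16.8 and 31.7 ± 18.3 CPM (log2 fold change 0.96, limma adjusted p = 0.147), and Bmp7 at 43.2 ± 8.27 and 32.8 ± 9.23 CPM (0.42, limma adjusted p = 0.339). Bmp4, named here after its values were seen, was under the minimum. It was at 1.54, 1.07, 1.81 and 0.40 CPM in conventionalized and 4.47, 4.38, 12.8 and 7.53 CPM in germ-free libraries, from an approximate 6 to 111 reads. With a minimum of 1 CPM its log2 fold change was -2.15 (SE 0.52, limma adjusted p = 0.037), and with no minimum the limma adjusted p was 0.0573.

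Of 8 further receptors and co-receptors tested, 1 was called lower without the block. Acvrl1, a type I receptor for BMP9 and BMP10 best known from endothelium, was at 8.80, 13.9, 18.3 and 13.4 CPM in conventionalized and 67.3, 32.5, 44.7 and 45.6 CPM in germ-free libraries. The groups did not overlap (log2 fold change -1.76, SE 0.32, limma adjusted p = 0.0076). The endothelial Pecam1 (values above) and Cdh5 were also lower in the conventionalized animal of all 4 pairs, Cdh5 at 0.418 ± 0.557 against 1.88 ± 1.60 CPM. By overlap of the groups the endothelial markers were mixed. The groups overlapped for Cdh5 itself and for Esam (values above). They also overlapped for Kdr (1.20 to 9.11 CPM in conventionalized and 2.29 to 8.38 CPM in germ-free libraries). They did not overlap for Erg, which was barely detected (0 to 0.096 CPM in conventionalized and 0.118 to 0.276 CPM in germ-free libraries). The part of endothelial cells in the Acvrl1 result was not tested. The TGF-beta receptor Tgfbr2 (28.0 ± 5.81 against 11.7 ± 5.67 CPM, limma adjusted p = 0.0642, 0.0243 with the littermate block) was called higher in conventionalized animals with the block. So was the BMP co-receptor Rgmb (304 ± 106 against 140 ± 65.8 CPM, limma adjusted p = 0.112, 0.0417 with the block). Smad2 and Smad3, which carry TGF-beta signals, had log2 fold changes of 0.52 and 0.21 (limma adjusted p = 0.264 and 0.675), and Smad9 was at 2.53 CPM or less.

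Of 15 extracellular antagonists and the pseudoreceptor Bambi, listed together, 3 were tested and 0 called by limma without the block, with 1 at an unadjusted p under 0.05. That was Bambi, itself a target and a brake of the pathway, at 32.6, 26.3, 28.9 and 37.3 CPM in conventionalized and 129, 74.6, 74.8 and 31.9 CPM in germ-free libraries. Pair D went against the other 3 pairs, and the log2 fold change was -1.15 (SE 0.37, limma adjusted p = 0.0881, 0.047 with the littermate block). The antagonist-binding protein gene Twsg1 (-0.04) and Fstl1 (0.10) had fold changes near 0, and Grem1, a mesenchymal antagonist, did not exceed 1.20 CPM. Of 29 tested intracellular regulators of Smads and receptors 0 were called by limma, with 3 at an unadjusted p under 0.05, and 0 with the block. Among the lowest p were those of the Smad co-repressor Skil (14.5 ± 5.27 against 31.0 ± 17.9 CPM, limma adjusted p = 0.134) and Tob2 (log2 fold change 0.63, limma adjusted p = 0.172). Of 5 tested nuclear partners 0 were called by limma, with 2 at an unadjusted p under 0.05, and 0 with the block. The nuclear partners Gata6 (0.70, limma adjusted p = 0.131) and Gata4 (0.73, limma adjusted p = 0.164), transcription factors of small intestinal identity, and Ep300 (-0.61, limma adjusted p = 0.209) came first.

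**Figure D5:**
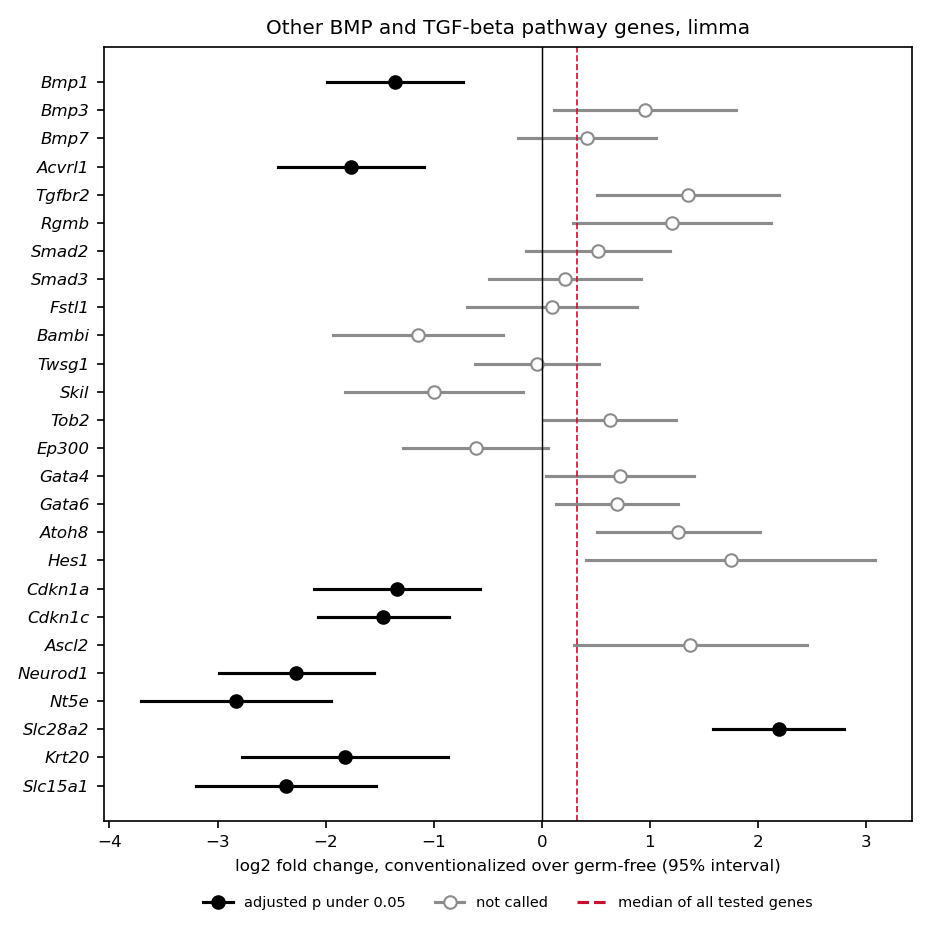
log2 fold change, conventionalized over germ-free, of the other pathway genes named in the text that were tested, with 95% intervals from limma (n = 4 per group), in the order of the lists by role. Filled points are the 9 genes called, of which Slc28a2 (2.19) is the 1 higher in conventionalized animals.

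Of 6 further genes listed as BMP targets that were tested, 2 were called lower in conventionalized animals, both inhibitors of cyclin-dependent kinases. Cdkn1c averaged 28.9 ± 3.90 CPM with microbiota and 83.0 ± 26.9 CPM without (log2 fold change -1.47 with SE 0.28, limma adjusted p = 0.0103). Cdkn1a was at 181 ± 66.7 against 449.8 ± 126 CPM (-1.34, SE 0.36, limma adjusted p = 0.0465). Listed targets also went the other way: Atoh8 was at 19.3 ± 5.13 against 7.81 ± 2.48 CPM, with groups that did not overlap (log2 fold change 1.26, limma adjusted p = 0.0551, 0.0496 with the littermate block). Hes1, better known as a Notch target, was at 199 ± 86.0 and 75.6 ± 45.0 CPM (limma adjusted p = 0.114, 0.0233 with the block). With the block 3 of the 6 were called lower and 2 higher. Id4, the remaining Id gene, did not exceed 5.81 CPM.

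Of 9 tested E proteins and other helix-loop-helix partners 1 was called lower, Neurod1, a factor of enteroendocrine cells (85.9 ± 24.0 against 422 ± 142 CPM, limma adjusted p = 0.00548). The stem cell factor Ascl2 was at 221 ± 87.1 against 99.5 ± 63.2 CPM (limma adjusted p = 0.121). Among 8 genes of the villus tip, a site of high BMP activity, 3 were called lower (the ecto-nucleotidase Nt5e, the keratin Krt20 and the peptide transporter Slc15a1) and 1 higher (the nucleoside transporter Slc28a2). Nt5e averaged 35.4 ± 11.2 CPM with microbiota and 287 ± 202 CPM without (log2 fold change -2.83 with SE 0.41, limma adjusted p = 0.00548), and Slc28a2 at 49.0 ± 10.3 against 10.3 ± 1.84 CPM (2.19, SE 0.28, limma adjusted p = 0.00548).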

How the data were processed

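The deposited table holds a normalized signal per gene and library, made by the authors from estimated counts, and not raw counts. The values show that a library-wide factor was divided out, and in genes with more than 1 transcript a further factor that varies by gene: 99.8% of values of 27909 genes with 1 transcript were whole multiples of a step per library (tolerance 0.02), against 22.9% in 20149 genes with several. Whole reads cannot be recovered for the latter, so a count test was not run, and approximate reads are the signal divided by the step. Tools in the submitters' processing notes are STAR 2.4.2a, Trimmomatic 0.36, DESeq2 1.12.4 and R 3.3.1, with build mm10. The authors also named Salmon and edgeR, per the series text. For the annotation release the sources used here say nothing.

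Symbols (48058 genes), positions and exon lengths came from GENCODE M21 (GRCm38, the mm10 build). Signal became CPM through TMM factors (trimming 30% of log ratios and 5% of intensities), and genes with 10 CPM in at least 4 of 8 libraries were tested as log2(CPM + 0.5) in limma 3.58.1 under R 4.3.3 (trend, robust, condition as the only term, two-sided). The pseudocount shrinks fold changes of low genes, and reads without molecular identifiers are not independent molecules. Pairs are littermates per the labels, and the correlation of their deviations from the group means was 0.14, -0.16, 0.31 and -0.01 for pairs A to D. The members and lists were chosen with earlier results of these data known. Genes were named by rule: all members, the 3 lowest p of each pathway list, the 3 nearest profiles of each Id gene, Sox9 and Lgr5. A gene that this rule selects is not reported here. Marker and receptor genes such as Pecam1, Cdh5, Esam, Kdr, Smad9, Grem1 and Id4 were added as examples after their values were seen. The fit was tested on simulated data.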

Additional observations from a re-analysis of the deposited data

How the results depend on the processing

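Alternatives were scaling, expression minimum, pseudocount, variance model, array weights, the littermate block and leaving out libraries or pairs. The block combined with library size or with a pair left out was chosen after seeing the data. Called members numbered 1 in the condition-only fit. They numbered 2 with library size only, 2 with the conventionalized animal of pair A and the germ-free animal of pair C both left out, and 0 by limma with no expression minimum (3 at an unadjusted p under 0.05). By limma they numbered 0 without pair A, B, C or D (2, 2, 2 and 3 at an unadjusted p under 0.05), 4 with the replicate block and library size only (Id1, Id2, Id3 and Smad6), 0 with the replicate block without pair A (3 at an unadjusted p under 0.05), and 0 to 1 with 1 library left out. Genes called higher numbered 117 in the condition-only fit, 263 with upper-quartile scaling, 45 with no minimum, 765 with array weights, 812 with the replicate block and 235 with those 2 libraries left out. They numbered 1, 386, 54 and 5 without pairs A, B, C and D, 308 with the replicate block and library size only, and 222, 2408 and 46 with the replicate block without pairs A, B and D. With 1 library left out they ran from 12 to 410. Genes called lower numbered 378 in the condition-only fit, 608 with array weights, 639 with the replicate block and library size only, and 0, 160 and 183 without pairs A, C and D (557 at an unadjusted p under 0.05 without pair A). They numbered 225 with the replicate block without pair A, and 129 to 372 with 1 library left out. Other pathway genes called numbered 18 with array weights, 15 with the replicate block, with or without library size only, 14 with those 2 libraries left out, 0 without pair A (18 at an unadjusted p under 0.05), 17 with the replicate block without pair B, and 5 to 13 with 1 library left out. The Smad1 fold change was negative with library size only (-0.17, with and without the replicate block), with those 2 libraries left out (-0.00867), and ran from -0.0185 (conventionalized library of pair A left out) to 0.185 with 1 library left out. The sign of the other tested members was the same in all 22 alternatives chosen at the outset. The block alone changed no member's call. With it the limma adjusted p was 0.0175 for Id2, 0.0527 for Smad6, 0.0743 for Id3, 0.108 for Smad4 and 0.149 for Id1. For Smad5, Bmpr1a and Smad1 it was 0.432, 0.724 and 0.863. The cause of these changes was not tested. Bmpr2 and Smad7 rest on an approximate 34 to 99 and 51 to 183 reads per library.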

Other observations

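Set against the summed enteroendocrine markers, Id2 had the opposite order of groups: it amounted to 0.482 to 0.581% of their sum in conventionalized and 0.338 to 0.441% in germ-free libraries. The ratio of Smad6 to Smad1 was 0.063 to 0.186 in conventionalized and 0.187 to 0.65 in germ-free libraries, and the ranges did not overlap. Both ratios were looked at after the values were seen and carry no test.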
